A study of Mus musculus with 6 samples.

Results

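The genes described here are 10 genes of the circadian clock and its PAR bZIP output branch, matched by symbol in a table of 35434 genes: Dbp, Tef, Hlf, Nr1d1, Nr1d2, Per1, Per2, Per3, Cry1 and Ciart. They were measured by RNA-seq in lesional skin of mice with psoriasis that had received transferred regulatory T cells (Tregs). There were 6 libraries: 3 labelled Lenv-Treg, in which the title of the series gives the transferred cells as lenvatinib-treated, and 3 labelled Ctrl-Treg, in which they were control Tregs. Lenvatinib inhibits receptor tyrosine kinases. Both groups thus share the disease and the transfer of Tregs. The sources used here do not give strain, age, sex, the means of inducing disease or the hour at which skin was taken, and do not state whether each library came from its own mouse. The p-values below therefore measure the spread among the libraries at hand, some of which may be technical.

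The circadian clock is a feedback loop of transcription that runs in nearly every cell, skin included. CLOCK and BMAL1 bind E-box sequences and switch on the Per and Cry genes, whose proteins repress CLOCK-BMAL1, and the Nr1d1 and Nr1d2 genes, whose proteins (REV-ERB alpha and beta) repress Bmal1. DBP, TEF and HLF, the PAR bZIP factors, are themselves driven by the clock and bind D-box sequences in further genes, Per3 among them. Transcripts of these genes rise and fall over the day, and in skin the clock is known from keratinocytes, hair follicles and fibroblasts.

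The members were chosen by their values in this contrast, that is with the FPKM differences between Lenv-Treg and Ctrl-Treg known, so those values are given as a description, without a test. FPKM is the number of fragments of a gene scaled by gene length and by library depth, so a comparison between genes depends on the length used for each. Depth was even, at 38704536 to 40248462 assigned reads per library, and all 10 members passed the filter on low values (at least 0.5 FPKM in at least 3 of 6 libraries). The skin label fits the defining markers in that the 4 keratinocyte markers Krt5, Krt14, Krt1 and Krt10 summed to 7116 to 8857 FPKM in Lenv-Treg and 2583 to 4228 FPKM in Ctrl-Treg.

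Dbp, a strongly cycling PAR bZIP gene in many tissues, had 7.39, 5.79 and 5.06 FPKM in the 3 Lenv-Treg libraries, against 26.3, 34.0 and 23.3 FPKM in the 3 Ctrl-Treg libraries. The groups did not overlap, and the highest Lenv-Treg library lay far below the lowest Ctrl-Treg library. The means were 6.08 ± 1.19 FPKM in Lenv-Treg and 27.8 ± 5.51 FPKM in Ctrl-Treg (SD, n = 3 each), a ratio of 0.218, and the difference in log2(FPKM + 1), Lenv-Treg minus Ctrl-Treg, was -2.02 (SE 0.17). Behind these values lay 548 to 808 reads per Lenv-Treg library and 2462 to 3637 reads per Ctrl-Treg library. Skin is a mixture of cell types, and in bulk RNA fewer cells of a type and less RNA per cell cannot be told apart, here and for the genes that follow.

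Hlf, the PAR bZIP gene with the lowest level here, was at 1.41, 1.20 and 0.889 FPKM in Lenv-Treg, against 3.62, 4.35 and 3.71 FPKM in Ctrl-Treg. Every Lenv-Treg library was below every Ctrl-Treg library, and the ratio of means was 0.300 (log2 difference -1.18, SE 0.12). With a pseudocount of 0.1 in place of 1 the Hlf difference was -1.67, since the larger pseudocount understates the change of a gene at this level. Tef, which encodes thyrotroph embryonic factor, had 11.8, 9.05 and 7.64 FPKM in Lenv-Treg, against 19.5, 23.5 and 16.9 FPKM in Ctrl-Treg. Its groups did not overlap either, but the ratio of means, 0.475, was nearer to 1 than that of Dbp or Hlf (log2 difference -1.01, SE 0.17).

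The make-up of the PAR bZIP transcripts also differed with the group, Dbp being lower by more than Tef. Dbp supplied 35.9%, 36.1% and 37.2% of the summed FPKM of Dbp, Tef and Hlf in Lenv-Treg, against 53.2%, 54.9% and 53.0% in Ctrl-Treg. The sum itself was 13.6 to 20.6 FPKM in Lenv-Treg and 43.9 to 61.8 FPKM in Ctrl-Treg.

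The REV-ERB genes were lower in Lenv-Treg as well. Nr1d1 had 27.2, 25.3 and 17.2 FPKM in Lenv-Treg, against 55.0, 47.6 and 40.5 FPKM in Ctrl-Treg (ratio of means 0.488, log2 difference -1.02, SE 0.19). Nr1d2 had 13.4, 10.1 and 8.60 FPKM in Lenv-Treg, against 19.9, 22.8 and 19.0 FPKM in Ctrl-Treg (ratio 0.520, log2 difference -0.90, SE 0.16). For both genes all 3 Lenv-Treg libraries were below all 3 Ctrl-Treg libraries. The 2 genes kept a similar proportion to each other: Nr1d1 over Nr1d2 was 2.03, 2.52 and 2.00 in Lenv-Treg and 2.77, 2.09 and 2.14 in Ctrl-Treg, and these ranges overlap.

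Of the Period genes, whose proteins form the repressing arm of the loop together with the cryptochromes, only Per3 had groups that did not overlap. Per3 was at 1.87, 1.12 and 1.12 FPKM in Lenv-Treg, against 2.52, 4.16 and 2.48 FPKM in Ctrl-Treg, with no overlap and a ratio of means of 0.448 (log2 difference -0.77, SE 0.19). Per1, a Period gene that also responds to glucocorticoids and cAMP, had 4.63, 4.05 and 4.31 FPKM in Lenv-Treg, against 4.06, 3.75 and 3.23 FPKM in Ctrl-Treg. The lowest Lenv-Treg library of Per1 lay just under the highest Ctrl-Treg library, so the groups overlapped, with a ratio of means of 1.18 (log2 difference 0.19, SE 0.10). Per2 had 1.14, 1.44 and 0.918 FPKM in Lenv-Treg and 1.20, 1.58 and 1.13 FPKM in Ctrl-Treg, which overlapped across most of their range (ratio 0.897, log2 difference -0.09, SE 0.12).

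Cry1, which encodes cryptochrome 1, had nearly equal means in the groups. It had 3.09, 3.21 and 3.19 FPKM in Lenv-Treg, all inside the Ctrl-Treg range of 2.42, 3.85 and 3.29 FPKM (ratio of means 0.993, log2 difference 0.01, SE 0.13). The spread of Cry1 was narrow in Lenv-Treg, with a coefficient of variation (SD over mean) of 1.98%, against 22.6% in Ctrl-Treg. Its Lenv-Treg values rest on 492, 514 and 503 reads, and an SD of 3 libraries is imprecise, so nothing is read from this spread. Ciart, whose protein (CHRONO) represses CLOCK-BMAL1, had 1.92, 0.941 and 0.990 FPKM in Lenv-Treg, against 2.12, 2.44 and 1.97 FPKM in Ctrl-Treg. Its groups did not overlap, but Lenv-Treg replicate 1 came close to the lowest Ctrl-Treg library. The ratio of Ciart means was 0.590, and 0.444 without Lenv-Treg replicate 1 (log2 difference -0.50, SE 0.17). Ciart rests on the fewest reads of the 10 genes, 84 to 170 in the Lenv-Treg libraries and 169 to 212 in the Ctrl-Treg libraries.

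**Figure D1:**
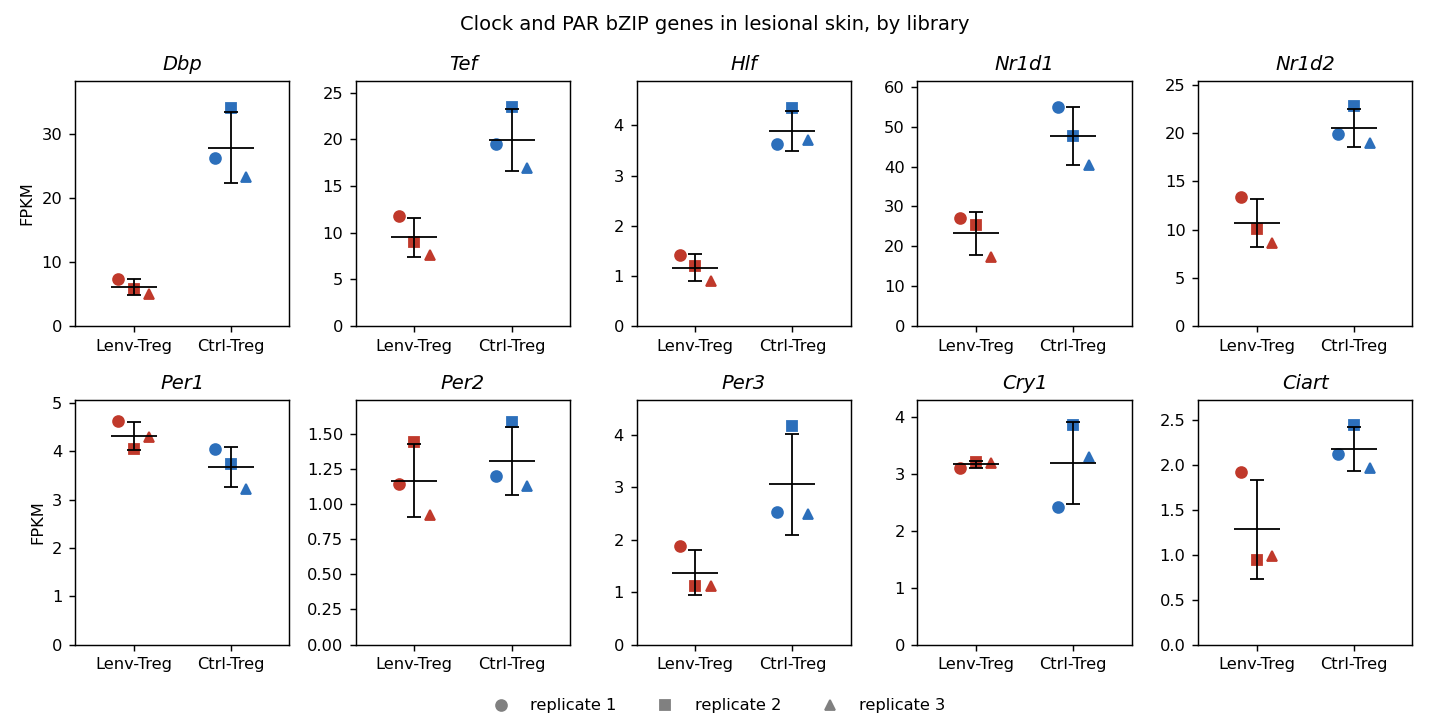
FPKM of the 10 genes in each library (linear axes from 0), with Lenv-Treg left of Ctrl-Treg; marker shapes give the replicate number and bars the mean ± SD of 3 libraries. Dbp, Tef, Hlf, Nr1d1, Nr1d2, Per3 and Ciart lie lower in all 3 Lenv-Treg libraries, with Dbp at 6.08 against 27.8 FPKM on average, while Per1, Per2 and Cry1 overlap.

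Read together, 7 of the 10 genes had all Lenv-Treg libraries below all Ctrl-Treg libraries and 3 overlapped. Among the 13945 genes tested, 55.4% had groups that did not overlap, 41.0% with Lenv-Treg lower and 14.4% with Lenv-Treg higher, and since the contrast chose the members nothing is read from their count. The median log2 difference was -0.83 over the 10 members and -0.17 over all tested genes. Ranked from the lowest difference, Dbp stood 194th of the 13945 genes, Hlf 611th, Nr1d1 798th, Tef 817th, Nr1d2 1032nd, Per3 1400th and Ciart 2703rd. Cry1, Per2 and Per1 stood in the upper part of that ranking, at the percentiles 68.9, 59.4 and 81.7.

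The order of levels changed with the group. In Lenv-Treg it was Nr1d1 (23.3 ± 5.32 FPKM), Nr1d2 (10.7 ± 2.46), Tef (9.49 ± 2.10), Dbp (6.08 ± 1.19), Per1 (4.33 ± 0.292), Cry1 (3.17 ± 0.0627), Per3 (1.37 ± 0.437), Ciart (1.28 ± 0.550), and Hlf and Per2 (1.17 ± 0.265 and 1.17 ± 0.264). In Ctrl-Treg it was Nr1d1 (47.7 ± 7.25 FPKM), Dbp (27.8 ± 5.51), Nr1d2 (20.5 ± 2.00), Tef (20.0 ± 3.31), Hlf (3.89 ± 0.397), Per1 (3.68 ± 0.419), Cry1 (3.19 ± 0.719), Per3 (3.05 ± 0.955), Ciart (2.17 ± 0.241) and Per2 (1.30 ± 0.241). Nr1d1 thus had the highest FPKM of the set in both groups, and Dbp came next to it only in Ctrl-Treg. This order rests on the gene model lengths recovered from the values, 2765 bases for Nr1d1, 2734 for Dbp and 6989 for Tef. In reads, Tef (2116 to 3288 in Lenv-Treg, 4582 to 6433 in Ctrl-Treg) was near Nr1d1 (1886 to 3010 and 4336 to 6123). The ranges over libraries of Nr1d2 and Tef overlapped in both groups, as did those of Per3, Ciart, Hlf and Per2 in Lenv-Treg and of Hlf, Per1, Cry1 and Per3 in Ctrl-Treg. In Ctrl-Treg the ranges of Ciart and Cry1 overlapped too. The lowest Dbp library there (23.3 FPKM) lay just under the highest Tef library (23.5 FPKM), though Dbp was above Tef within each library. Within libraries, Nr1d2 over Tef was 1.14, 1.11 and 1.12 in Lenv-Treg, with Nr1d2 higher in each, and 1.02, 0.970 and 1.12 in Ctrl-Treg.

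The scaling between libraries changed the sign of the members near 0. Rescaling FPKM to TPM, in which the values of each library are scaled to 1 fixed sum, moved the median of all tested genes to -0.44, scaling to equal medians of ratios moved it to -0.00, and quantile normalization to -0.01. Dbp was at -2.37, -1.83 and -1.90 under these 3 scalings, and all 7 members with non-overlapping groups stayed negative under each of them. They were negative and below the median of all tested genes in all 16 settings tried, but most of these could not change the sign. Where groups do not overlap, leaving out a library or changing the pseudocount keeps it. The filter, the variance trend and the replicate block leave the difference of a member as it is. Per1 was at 0.36 after median-of-ratios scaling and at -0.05 after rescaling to TPM, so its sign depends on the scaling. The signs of Per2 (0.03 and -0.31) and Cry1 (0.17 and -0.24) depended on it too.

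**Figure D2:**
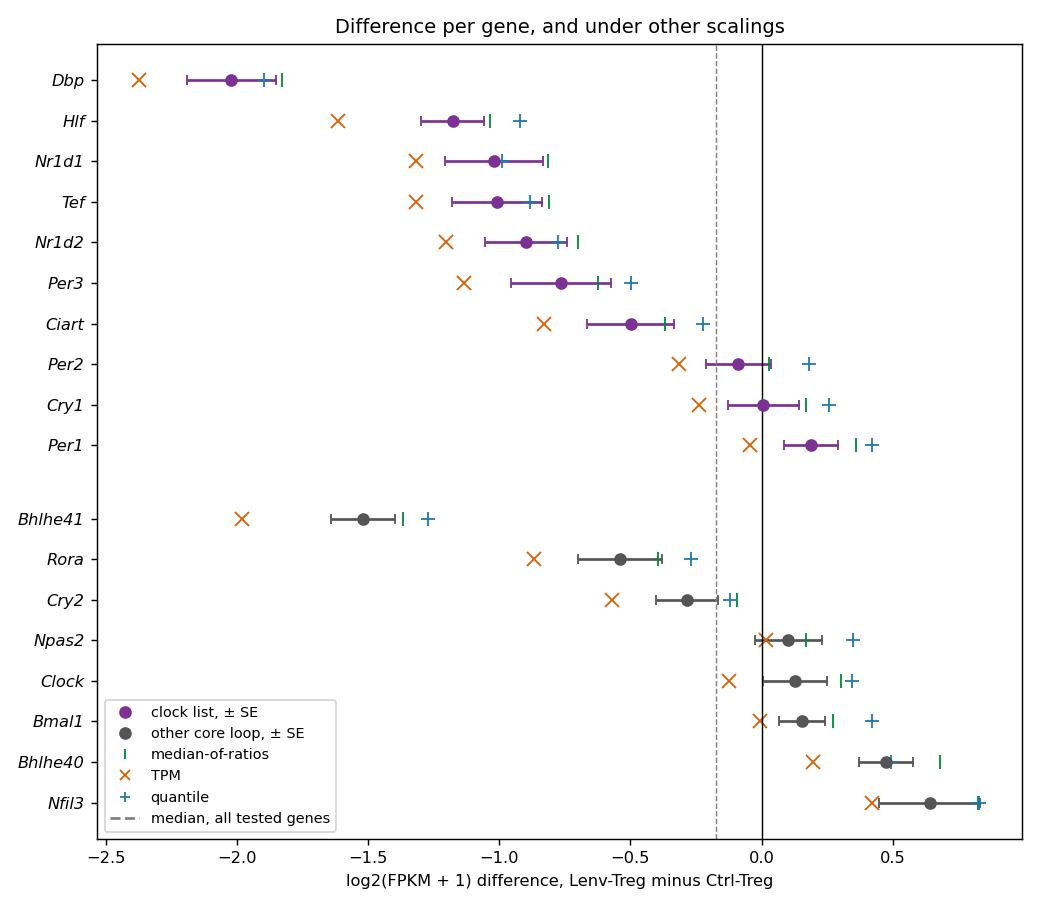
Difference in log2(FPKM + 1), Lenv-Treg minus Ctrl-Treg, for the 10 members (upper block, purple) and 8 tested genes of the rest of the core loop (lower block, grey); points with bars are the fitted difference ± SE on the deposited scale, other symbols the difference under 3 other scalings, and the dashed line the median of all tested genes, -0.17. Dbp at -2.02 and Bhlhe41 at -1.52 lie furthest to the left, and Per1, Per2 and Cry1 lie on both sides of 0 depending on the scaling.

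Ratios between genes within a library are the same on the FPKM, TPM and median-of-ratios scales. Dbp over Per1 was 1.60, 1.43 and 1.17 in Lenv-Treg, against 6.48, 9.07 and 7.20 in Ctrl-Treg. Dbp over Bmal1, the activator that REV-ERB represses, was 4.97, 4.28 and 3.97 in Lenv-Treg, against 23.0, 32.8 and 19.3 in Ctrl-Treg. Dbp over Tef was 0.628, 0.640 and 0.662 in Lenv-Treg, against 1.35, 1.45 and 1.37 in Ctrl-Treg, a ratio that scarcely varied among the libraries of a group. These pairs were picked after the values were seen. The authors' gene model length, recovered from the values, is 19267 bases for Bmal1 and 2734 for Dbp, and a long model lowers a gene's FPKM, so the size of Dbp over Bmal1 carries that length.

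**Figure D3:**
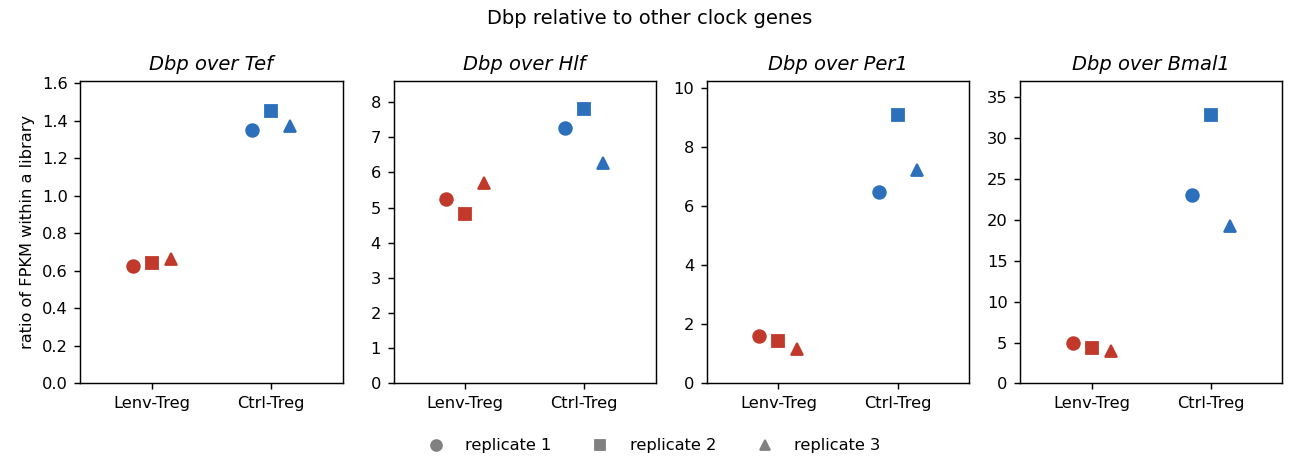
FPKM of Dbp divided by that of Tef, Hlf, Per1 or Bmal1 in each library (linear axes from 0), with Lenv-Treg left of Ctrl-Treg and marker shapes for the replicate number. All 4 ratios are lower in every Lenv-Treg library, with Dbp over Hlf the nearest, at 5.23, 4.82 and 5.69 in Lenv-Treg against 7.26, 7.81 and 6.28 in Ctrl-Treg.

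Within the groups the libraries also kept an order. It does not use the difference between groups, but the members were chosen from these same libraries, so it is a description only. Lenv-Treg replicate 1 was the highest of its group for 8 of the 10 members, while it was the highest for 43.3% of all tested genes. The exceptions were Per2 and Cry1, for which Lenv-Treg replicate 2 was highest. Lenv-Treg replicate 3 was the lowest for 7 members, against 37.2% of tested genes. In Ctrl-Treg, replicate 2 was the highest for 8 members (35.4% of tested genes), with Nr1d1 and Per1 highest in replicate 1. Ctrl-Treg replicate 3 was the lowest for 8 members (30.7% of tested genes), all but Hlf and Cry1. The median coefficient of variation of the members was 22.6% in Lenv-Treg and 15.9% in Ctrl-Treg, while that of all tested genes was 12.0% in Lenv-Treg and 11.7% in Ctrl-Treg. The 10 genes belong to 1 regulatory loop and are not independent observations of this order.

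Promoter windows of 9 of the 10 genes were found in the RefSeq table (build GRCm38.p6), each covering 250 bases before and 50 bases after a start. Both strands were searched for the E-box CACGTG, the D-box TTATGTAA or TTACGTAA, the ROR response element (TAGGTCA preceded by any base and a pair of A) and the cAMP response element TGACGTCA. These motifs do not overlap with each other in the windows of the members. An E-box was present for 4 of the 9 genes (Tef, Per1, Cry1 and Ciart), against 8.09% of 27025 genes in the table. A D-box was present for 1 (Per3, against 1.23% of genes), a cAMP response element for 1 (Hlf, against 2.03%) and a ROR response element for 0 (against 0.259%). The windows of Dbp, Nr1d1 and Nr1d2 held no match, which says only that these letters are not there. No run of the bases after the start in the Nr1d1 window was found in a transcript of that gene in the annotation used. Each other window had such a run on the strand given. Whether a window lies at a transcript start was not checked for any gene. Members with an E-box were found both among the genes lower in Lenv-Treg (Tef and Ciart) and among those whose groups overlapped (Per1 and Cry1).

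The sequences below are the bases before the start on the strand of the gene, 5′ to 3′, with matched motifs in capitals. They are shown because each holds at least 1 of the searched elements. Among all genes, 9.69% hold at least 1 in the bases before the start and 11.3% in the whole window. For Ciart (chr3:95882229-95882478, minus strand) the first bases of the 3 E-boxes lie 116, 58 and 44 bases before the start, and for Per3 (chr4:151044666-151044915, minus strand) those of the 2 D-boxes lie 205 and 158 bases before it. Shorter stretches are given around the E-box in 1 of the 2 windows of Tef (chr15:81802516-81802581, plus strand), the E-boxes of Cry1 (chr10:85185079-85185144, minus strand) and Per1 (chr11:69098753-69098818, plus strand), and the cAMP response element of Hlf (chr11:90390918-90390956, minus strand).
Ciart: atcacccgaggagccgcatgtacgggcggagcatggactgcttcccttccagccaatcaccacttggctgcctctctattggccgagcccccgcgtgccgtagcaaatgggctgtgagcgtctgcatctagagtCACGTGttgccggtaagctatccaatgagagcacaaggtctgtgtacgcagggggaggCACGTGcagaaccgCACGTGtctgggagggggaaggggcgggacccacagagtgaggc
Per3: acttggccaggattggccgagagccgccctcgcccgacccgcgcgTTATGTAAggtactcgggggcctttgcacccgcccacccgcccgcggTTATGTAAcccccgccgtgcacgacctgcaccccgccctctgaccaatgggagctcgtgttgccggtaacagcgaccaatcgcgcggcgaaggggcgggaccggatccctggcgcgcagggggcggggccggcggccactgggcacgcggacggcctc
Tef: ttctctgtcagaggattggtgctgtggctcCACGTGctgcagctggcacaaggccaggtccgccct
Cry1: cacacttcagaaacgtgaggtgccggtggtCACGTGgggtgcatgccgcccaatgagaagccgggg
Per1: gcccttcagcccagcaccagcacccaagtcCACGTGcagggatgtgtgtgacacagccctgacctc
Hlf: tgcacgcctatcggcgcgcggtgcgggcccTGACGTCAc

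The rest of the core loop was tested in limma on log2(FPKM + 1), with Benjamini-Hochberg adjustment over all 13945 genes and a threshold of 0.05. In that comparison 41.7% of tested genes passed, 11.0% higher and 30.8% lower in Lenv-Treg. Of the 9 listed genes 8 were tested, of which 2 rose, 2 fell and 4 did not pass. The split was 3 higher and 1 lower with median-of-ratios scaling, 0 higher and 3 lower in the TPM scale, and 4 higher and 1 lower with quantile normalization. Bhlhe41 and Bhlhe40 encode DEC2 and DEC1, repressors that bind E-boxes, and they moved in opposite directions. Bhlhe41 fell, to 1.47, 0.986 and 1.43 FPKM in Lenv-Treg against 5.26, 6.25 and 5.19 FPKM in Ctrl-Treg (log2 difference -1.52, SE 0.12, limma adjusted p = 0.000157). Bhlhe40 rose, with 43.7, 39.5 and 42.8 FPKM in Lenv-Treg against 31.1, 32.2 and 26.7 FPKM in Ctrl-Treg (log2 difference 0.47, SE 0.10, limma adjusted p = 0.00962), a call lost in the TPM scale (0.20, adjusted p = 0.217).

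Nfil3, which encodes a repressor that competes with the PAR bZIP factors for the D-box, rose in Lenv-Treg. It had 5.72, 8.61 and 10.3 FPKM in Lenv-Treg, against 4.18, 5.42 and 4.78 FPKM in Ctrl-Treg (log2 difference 0.64, SE 0.19, limma adjusted p = 0.0322). The lowest Lenv-Treg library of Nfil3 was close to the highest Ctrl-Treg library. The call was lost on leaving out Lenv-Treg replicate 2 (limma adjusted p = 0.0989), Lenv-Treg replicate 3 (0.0893), Ctrl-Treg replicate 1 (0.0883) or Ctrl-Treg replicate 3 (0.0694), with no filter on low values (0.0815) and in the TPM scale (0.0777). Rora, an activator of Bmal1 that binds the same element as REV-ERB, fell (2.34, 1.51 and 1.25 FPKM in Lenv-Treg, against 3.35, 2.61 and 2.68 FPKM in Ctrl-Treg, log2 difference -0.54, SE 0.16, limma adjusted p = 0.0312). The Rora call held when Lenv-Treg replicate 1 was left out and was lost on leaving out any other library (limma adjusted p from 0.0504 without Ctrl-Treg replicate 2 to 0.0983 without Lenv-Treg replicate 2), and with no filter on low values (0.0854), median-of-ratios scaling (0.0949) or quantile normalization (0.216). Without Lenv-Treg replicate 2, Lenv-Treg replicate 3, Ctrl-Treg replicate 1 or Ctrl-Treg replicate 3 the list had 2 genes past the threshold in place of 4.

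The activators themselves did not pass. Bmal1 had 1.49, 1.35 and 1.27 FPKM in Lenv-Treg and 1.14, 1.04 and 1.21 FPKM in Ctrl-Treg, without overlap but by a small margin (log2 difference 0.15, SE 0.09, limma adjusted p = 0.186). After median-of-ratios scaling Bmal1 passed (0.27, adjusted p = 0.0407), as it did after quantile normalization (0.42, adjusted p = 0.00789), and after rescaling to TPM its difference was -0.00. Clock (0.13, adjusted p = 0.422) and its relative Npas2 (0.10, adjusted p = 0.542) did not pass in limma, and for Npas2 the ratio of means was 1.20, and 1.76 without Ctrl-Treg replicate 1. Cry2, which encodes the other cryptochrome, did not pass either (-0.28, limma adjusted p = 0.0885). Clock passed after quantile normalization (0.35, adjusted p = 0.0415) and Cry2 after rescaling to TPM (-0.57, adjusted p = 0.0165). Rorb was below the filter, with 4 to 25 reads in Lenv-Treg libraries and 9 to 24 reads in Ctrl-Treg libraries.

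Kinases, ubiquitin ligases and partners that act on the clock proteins formed the next list. Of its 17 tested genes 1 rose, 8 fell and 8 did not pass (52.9% called, against 41.7% of all tested genes, of which 11.0% were higher and 30.8% lower). The median log2 difference was -0.30, against -0.17 over all tested genes. Csnk1e, a casein kinase that phosphorylates PER proteins, fell (5.99 ± 0.966 FPKM in Lenv-Treg and 10.6 ± 0.289 FPKM in Ctrl-Treg, log2 difference -0.74, limma adjusted p = 0.00254). Timeless, whose protein acts at replication forks (-0.58, limma adjusted p = 0.00249) and Ncor1, the corepressor that REV-ERB recruits (-0.56, limma adjusted p = 0.0116), fell too. Usp2, a deubiquitinase that itself cycles in many tissues, fell by 0.58 on the log2 scale (limma adjusted p = 0.0222). The Usp2 call was lost on leaving out Lenv-Treg replicate 2 (0.0586), Lenv-Treg replicate 3 (0.0669) or Ctrl-Treg replicate 2 (0.0606), with quantile normalization (0.0892), with no filter on low values (0.0592) and with median-of-ratios scaling (0.0722), which also ended that of Ncor1 (0.0611). The gene that rose, named after its value was seen, was Csnk1a1, at 70.2 ± 2.60 FPKM in Lenv-Treg and 56.4 ± 2.34 FPKM in Ctrl-Treg (log2 difference 0.31, limma adjusted p = 0.0280). Its call was lost without Lenv-Treg replicate 2 (0.0901), Lenv-Treg replicate 3 (0.0769), Ctrl-Treg replicate 1 (0.0778) or Ctrl-Treg replicate 2 (0.0756), and in the TPM scale (0.03, adjusted p = 0.803). The count of this list depended on the scaling, with 1 higher and 3 lower after median-of-ratios scaling and 0 higher and 15 lower after rescaling to TPM. It was 4 in all, rather than 9, without Lenv-Treg replicate 2, Lenv-Treg replicate 3 or Ctrl-Treg replicate 2.

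The last list held genes that cycle in many peripheral tissues or are known targets of the PAR bZIP factors. Of 16 tested, 10 rose, 2 fell and 4 did not pass (75.0% called, against 41.7% of all tested genes, 11.0% higher and 30.8% lower). Like the other lists here, this list was drawn up with earlier results of these data known, so its share of calls is a description only. After rescaling to TPM, 5 were higher and 2 lower. The median log2 difference was 0.41, against -0.17 over all tested genes, and after rescaling to TPM 0.14, against -0.44. Pdk4, a kinase that restrains pyruvate dehydrogenase, rose most, to 76.3, 38.4 and 29.1 FPKM in Lenv-Treg against 18.0, 7.48 and 7.10 FPKM in Ctrl-Treg (log2 difference 2.04, SE 0.42, limma adjusted p = 0.00791). Fkbp5, a co-chaperone of the glucocorticoid receptor (1.32, limma adjusted p = 0.000103), Klf10, a Krüppel-like factor (0.81, limma adjusted p = 0.000787) and Tsc22d3, which encodes GILZ (0.78, limma adjusted p = 0.00826), rose as well. Tsc22d3 just missed the threshold after rescaling to TPM (0.51, adjusted p = 0.0501). The 2 that fell, named after their values were seen, were Wee1, a mitotic kinase under E-box control in liver (-0.60, limma adjusted p = 0.00657), and Pdxk, a PAR bZIP target in liver and brain (-0.34, limma adjusted p = 0.0233). The Pdxk call was lost without Lenv-Treg replicate 2 (0.0611), Lenv-Treg replicate 3 (0.0680) or Ctrl-Treg replicate 1 (0.0629) and with median-of-ratios scaling (-0.14, adjusted p = 0.292) or quantile normalization (-0.19, adjusted p = 0.152).

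Several of these outputs also respond to glucocorticoids, as Per1 does. On a list of 6 glucocorticoid response genes 5 rose and 0 fell, while 11.0% of all tested genes were called higher and 30.8% lower. Klf9 did not pass (log2 difference -0.27, limma adjusted p = 0.376). After rescaling to TPM, Sgk1 (0.38, adjusted p = 0.0622) and Tsc22d3 (0.51, adjusted p = 0.0501) missed the threshold, while Fkbp5, Zbtb16 and Dusp1 still passed. Their summed level was 285.0 to 371.2 FPKM in Lenv-Treg and 136.0 to 185.7 FPKM in Ctrl-Treg, in large part Dusp1, with 161 to 238 FPKM in Lenv-Treg and 63.8 to 101 FPKM in Ctrl-Treg. Fkbp5, Tsc22d3, Sgk1 and Klf9 stand on both lists, and the part of this response in the values of Per1 was not tested.

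**Figure D4:**
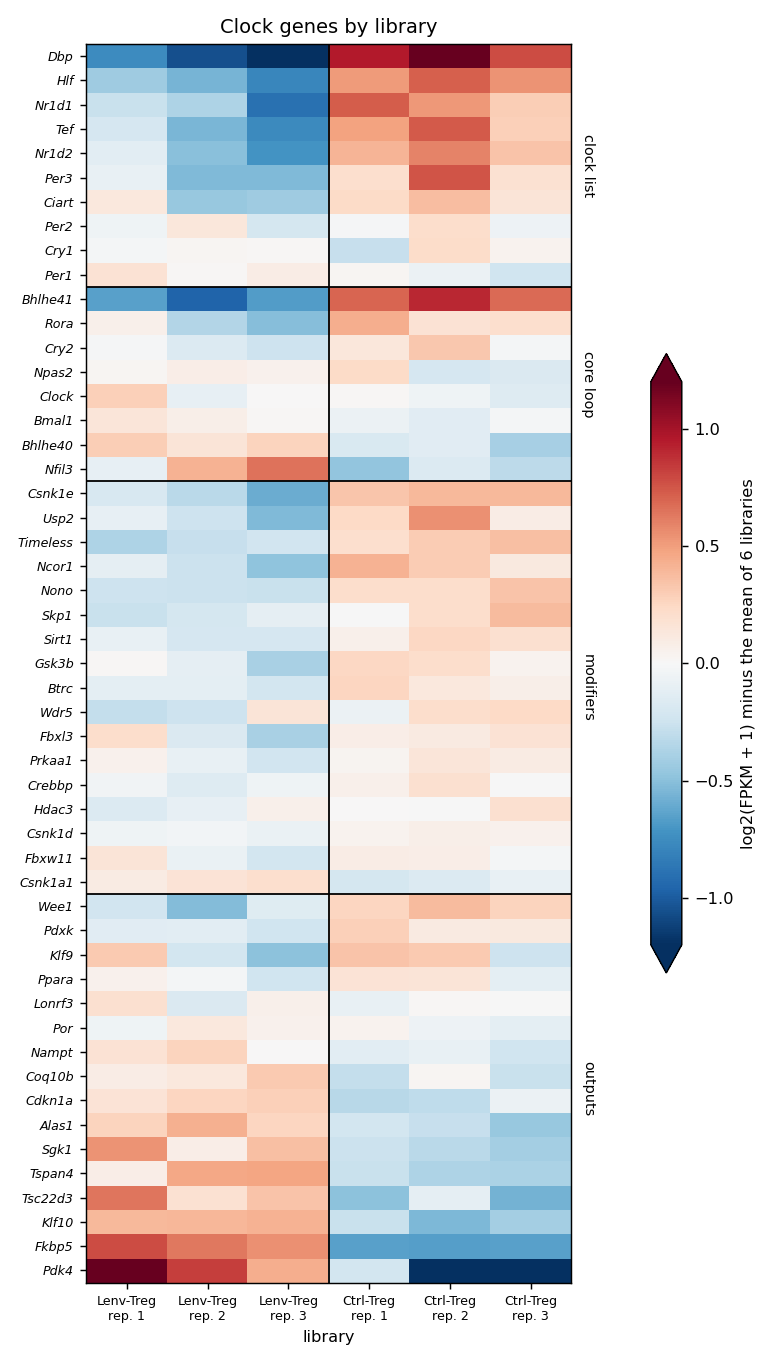
Log2(FPKM + 1) of each tested gene of the 4 clock lists minus its mean over the 6 libraries, with the 3 Lenv-Treg libraries left of the 3 Ctrl-Treg libraries; rows within a list run from the lowest to the highest difference and colours are capped at the ends of the scale. The upper rows of the clock list and Bhlhe41 are blue in Lenv-Treg, the lower rows of the outputs red, and Pdk4 and Fkbp5 differ most among the outputs, by 2.04 and 1.32.

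By profile, the 5 genes outside the list most like Dbp were Lrrn1, Pdzrn3, Lgr6, Skint5 and Mycl. Likeness was the root mean square distance between centred log2(FPKM + 1) profiles over the 6 libraries, which was 0.137 to 0.179 for these 5 genes and 0.437 for Hlf, the nearest member. Lrrn1, the nearest, had 0.813, 0.635 and 0.410 FPKM in Lenv-Treg, against 5.26, 5.35 and 3.94 FPKM in Ctrl-Treg. Lgr6, a receptor for R-spondins that marks epithelial stem cells of skin, had 0.892, 0.551 and 0.624 FPKM in Lenv-Treg, against 5.52, 5.28 and 4.38 FPKM in Ctrl-Treg. Skint5 belongs to a family of near-identical genes, among which reads could be shared. Closeness of the low genes depended on the pseudocount of 1: with 0.1 the log2 difference was -4.25 for Skint5, -2.81 for Lrrn1 and -2.73 for Lgr6, against -2.18 for Dbp. Pdzrn3 (-2.05) and Mycl (-2.33) stayed nearer to Dbp. So many genes differed between the groups that this likeness is a description only.

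Markers of several cell types also differed between the groups, in both directions. All 5 hair follicle markers fell, with summed levels of 0.619 to 13.7 FPKM in Lenv-Treg and 1132 to 2484 FPKM in Ctrl-Treg. All 4 adipocyte markers fell (702.8 to 1128 FPKM in Lenv-Treg and 1580 to 2019 FPKM in Ctrl-Treg), as did all 3 melanocyte markers (3.19 to 5.25 FPKM in Lenv-Treg and 91.9 to 149.9 FPKM in Ctrl-Treg). All 4 neutrophil markers rose, with sums of 38060 to 53740 FPKM in Lenv-Treg and 47.6 to 187.9 FPKM in Ctrl-Treg. Of 5 fibroblast markers 2 fell and 3 did not pass (1854 to 2594 FPKM in Lenv-Treg and 3569 to 4484 FPKM in Ctrl-Treg), and of 4 keratinocyte markers 2 rose and 1 fell. None of the 4 skeletal muscle markers passed (2106 to 2908 FPKM in Lenv-Treg and 2216 to 7170 FPKM in Ctrl-Treg), nor did the 3 endothelial markers (61.5 to 83.8 FPKM in Lenv-Treg and 35.1 to 61.9 FPKM in Ctrl-Treg). Of 4 macrophage markers 1 rose and 1 fell (712.1 to 775.8 FPKM in Lenv-Treg and 544.2 to 762.8 FPKM in Ctrl-Treg), and neither of the 2 T cell markers in the table passed (2.58 to 4.54 FPKM in Lenv-Treg and 2.44 to 4.27 FPKM in Ctrl-Treg). No marker was at 0 in any library. The part of these cell types in the clock values was not tested.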

How the data were processed

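RNA-seq libraries of lesional skin were made from TRIzol RNA with a VAHTS Universal V10 kit, per the labels' protocols. FPKM values of 35434 genes were deposited by the authors in 1 table of 6 libraries, grouped here by the treatment label. Per the submitters' processing notes the genome build was GRCm39. The aligner, counter and annotation were not given in the sources used here. No further sample columns were present (0).

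Low FPKM values are whole multiples of a step per gene. Allowing 0.005 reads plus 1.5e-07 for each read, whole reads were recovered for all 13945 genes passing the filter (FPKM of at least 0.5 in at least 3 libraries), and the recovered reads summed to 99.69% to 99.73% of the depth. One read on a gene of 1 kb is worth 0.0248 to 0.0258 FPKM. Tested on simulated data of 1167 genes, the step returned exact reads for 99.06%.

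Tests used limma 3.58.1 (R 4.3.3, trend, two-sided, Benjamini-Hochberg over all tested genes) on log2(FPKM + 1), which understates changes of low genes; folds are ratios of mean FPKM. Reads of 13945 genes were also simulated at the depths of these libraries. There limma called 20.9% of the 67 genes set to a log2 change of 0.5, 92.5% of the 67 set to 1 and 97% of the 66 set to 2. Of its calls 3.45% were false. Only these genes were changed, about equally up and down. In the data 41.7% of genes passed, most of them lower in Lenv-Treg, so these rates need not hold there. Members and lists were chosen with earlier results of these data known, and 1 further core loop gene was left out of the list and its counts and is not reported here. Named genes were the 10 members, the other core loop genes, up to 4 genes with the largest difference past the threshold from each of the other lists, and the 5 genes nearest to Dbp in profile, without predicted genes or pseudogenes.

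Alternatives changed the pseudocount (0.5 and 0.1), the filter, the scaling, the variance trend, the replicate block, each library in turn, and limma voom on recovered reads.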

Additional observations from a re-analysis of the deposited data

How the results depend on the processing

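The voom test on recovered reads, whole for all 13945 tested genes, called 5886 genes. Of 150 values of single members under alternatives, 127 moved by less than 1 SD between replicates and 23 moved by more. The median difference of the members was -0.83, and -0.99 to -0.70 with 1 library left out. Of 315 values of named genes outside the list, 288 kept their call or lack of a call, 23 lost the call and 4 gained it. Bmal1 and Clock, without a call on either scale, changed sign after rescaling to TPM (-0.0048 from 0.1549, and -0.123 from 0.1281). Rescaling to TPM moved the median of the members to -1.17, the genes passing over the whole table to 8917 (947 higher and 7970 lower) from 5821 (1532 higher and 4289 lower), the modifiers passing to 15 from 9, and the outputs passing to 7 from 12. Median-of-ratios scaling left 4 modifiers and split all genes into 2417 higher and 2417 lower, and quantile normalization into 2235 higher and 2305 lower. With no filter on low values 2 of the other core loop genes passed, against 4, with more genes in the adjustment. With 1 library left out, and so fewer samples, the counts were 3932 to 5285 for all genes, 2 to 4 for the other core loop, 4 to 9 for the modifiers and 8 to 11 for the outputs. Where an arm has 2 libraries the fit pools their spread with the other arm. The cause of the shifts with scaling was not tested.

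With the replicate number as a block, 5907 genes passed, with 4 of the core loop, 10 of the modifiers and 11 of the outputs, and the median of the members was -0.83. The labels do not say that the numbers pair libraries, and same-numbered libraries deviated together at r = 0.196, -0.0109 and 0.328, so no pairing is assumed. Counting error limits Ciart and Per2 most, which have the fewest reads, and in Lenv-Treg also Hlf, with 211 to 339 reads per library. The motif count, 6 of 9 genes, was the same when only the bases before the start were searched. Groups of 3 are too small for the rule used to single out libraries that stand apart.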
